A study of Rattus norvegicus with 4 samples.

Results

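Dual-specificity phosphatases and Sprouty proteins are the brakes that mitogen-activated protein kinase (MAPK) signalling puts on itself. The genes followed here were Dusp1, Dusp4, Dusp5, Dusp6, Dusp7, Spry1, Spry2 and Spry4. All probe sets whose single gene symbol in the platform annotation was 1 of these 8 names were taken. They were 9 of 15866 probe sets and covered 6 of the 8 genes. Under that rule Dusp7 and Spry4 had no probe set and were not analysed here. Signals came from 4 Affymetrix rat expression arrays of total RNA from cultured ventricular myocytes of newborn rats, the muscle cells of the heart's pumping chambers. The 2 control arrays carried RNA of cells on uncoated dishes, and the 2 fibronectin arrays RNA of cells on fibronectin-coated dishes. Fibronectin is a protein of the extracellular matrix that cells grip through integrins. Both groups spent 24 h in 10% serum and were then kept without serum for 48 h. The labels name no strain, pup age or number of pups. They also leave out whether replicates were cultured separately, so the p-values describe the spread of these arrays alone, and that spread may be technical.

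Integrins and growth factor receptors both feed the cascade in which Ras activates Raf, Raf activates MEK, and MEK phosphorylates ERK on a threonine and a tyrosine. Dual-specificity phosphatases of this family remove both phosphates. Dusp1, Dusp4 and Dusp5 encode nuclear, inducible members, and Dusp6 a cytoplasmic member that prefers ERK. Spry1 and Spry2 encode membrane-associated adaptors that dampen the cascade downstream of receptor tyrosine kinases. Transcription of many of these genes is induced by the kinases their proteins restrain, which closes a negative feedback loop. In heart muscle cells ERK signalling is known for its part in hypertrophic growth, the subject named in the title of the study.

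The promoters of Dusp1 and Dusp5 are shown because these are the genes whose tested signals separated the groups in the values below. Sequences are RefSeq's for the GRCr8 assembly, from 250 bases before to 50 bases after the annotated start. The Dusp1 window is chr10:17184603-17184902 on the plus strand and the Dusp5 window chr1:262543524-262543823 on the plus strand. Capitals mark the letters TGACG, the core of the cyclic AMP response element, the ETS core CCGGAA and the CArG box, which serum response factor binds, on either strand.
Dusp1: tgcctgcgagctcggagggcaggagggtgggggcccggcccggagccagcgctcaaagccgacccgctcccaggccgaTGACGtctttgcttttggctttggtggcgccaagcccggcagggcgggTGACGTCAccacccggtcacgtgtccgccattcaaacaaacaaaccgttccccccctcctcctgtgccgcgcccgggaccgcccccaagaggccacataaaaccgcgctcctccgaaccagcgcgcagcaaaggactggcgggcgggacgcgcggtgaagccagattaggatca
Dusp5: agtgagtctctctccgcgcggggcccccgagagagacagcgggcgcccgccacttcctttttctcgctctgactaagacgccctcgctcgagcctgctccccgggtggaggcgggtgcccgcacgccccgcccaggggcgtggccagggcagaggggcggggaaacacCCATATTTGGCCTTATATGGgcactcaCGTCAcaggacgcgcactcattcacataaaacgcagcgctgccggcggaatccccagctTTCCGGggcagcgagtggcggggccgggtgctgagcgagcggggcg
The table held a promoter for 7 of the 8 genes, with 2 entries for Spry2, so 8 windows were searched; Dusp4 was not matched. The full response element TGACGTCA, which contains the core, occurred 124 bases before the Dusp1 start and in none of the other 7 windows. It occurred in 1.83% of all 33469 promoter windows of that length. Dusp5 carried 2 adjoining CArG boxes, starting 82 and 72 bases before its start. Of all windows, 1.64% held a CArG box, and among the 8 it was found only at Dusp5. The core TGACG was present in 3 of the 8 windows and in 21.2% of all windows, and CCGGAA in 3 of 8 and in 15.0%. The GC box GGGCGG, not marked above, was present in 6 of 8 and in 33.1%. The AP-1 letters TGANTCA, the TATA box TATAAA and the Egr site GCGTGGGCG, found in 7.33%, 14.2% and 0.544% of all windows, had no match in the 8. Dusp1 and Dusp5 windows were 68.0% and 69.0% G or C, against a median of 51.7%. A match describes letters in this window and not a bound site.

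Some properties of the arrays touch every value below. Dim deposited signals, those up to 200 steps, were multiples of a fixed step to a tolerance of 0.05 steps. The step was 0.1, 0.233, 0.223 and 1.95 on control replicates 1 and 2 and fibronectin replicates 1 and 2, so dim signals were coarsest on fibronectin replicate 2. Across 9520 probe sets, which are not independent replicates, r of the log2 signals was 0.911 for the control pair and 0.792 for the fibronectin pair. Fibronectin replicate 1 correlated at 0.904 with control replicate 1, more closely than with its own group's other array. The array least like the others was fibronectin replicate 2, with r of 0.77 and 0.79 to control replicates 1 and 2. Ratios of 3' to 5' signal, which rise as RNA is shortened, were 1.15 to 1.64 on the controls and 3.52 to 6.02 on the fibronectin arrays for Gapdh. For beta-actin they were 1.40 to 1.46 and 6.29 to 13.0, and for hexokinase 3.77 to 4.12 and 3.11 to 7.0. Of myocyte markers, 0 of 11 were at the floor on all arrays. Most marker lists below shared this, so it does not identify the cell type. Summed normalized signals of the myocyte markers were 80893 and 93648 on the controls and 91491 and 94212 on fibronectin. Of 11 fibroblast markers, none at the floor on all arrays, 9 had a lower mean on fibronectin, and their summed signals were 32815 and 49707 on the controls and 18712 and 31037 on fibronectin, both below both controls. Leukocyte markers summed to 1564 and 1965 on the controls and 1103 and 1405 on fibronectin, with 6 of 9 lower. Smooth muscle markers summed to 3580 and 8899 and then to 4029 and 6718, with 2 of 5 lower. Endothelial markers summed to 530 and 587 and then to 464 and 663, with 2 of 6 lower. Neural and glial markers summed to 182 and 226 and then to 253 and 373, with 1 of 5 lower. Ngfr, in that last list, was the only marker at the floor on all 4 arrays.

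**Figure D1:**
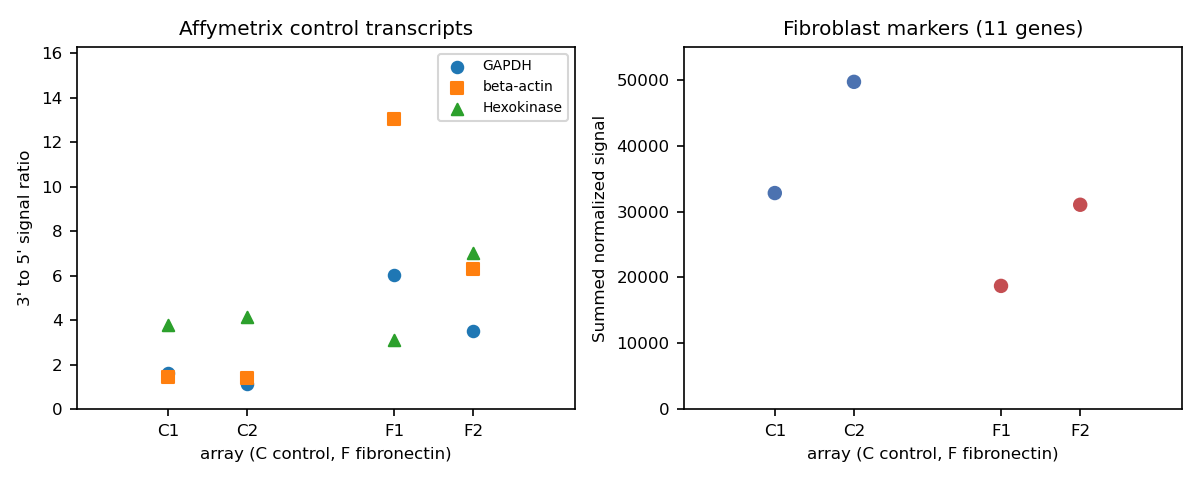
Left, ratio of 3' to 5' signal (linear axis) of 3 Affymetrix control transcripts on each of the 4 arrays. Right, summed normalized signal of 11 fibroblast marker genes; Gapdh ratios were 1.15 to 1.64 on the controls and 3.52 to 6.02 on fibronectin, and the lowest marker sum, 18712, was on fibronectin replicate 1.

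Among the nuclear phosphatases, Dusp5 and Dusp1 had signals that were lower on each fibronectin array than on each control. Dusp5 (probe set 1368124_at) gave normalized signals of 278 and 204 on the controls and 121 and 138 on fibronectin. Every fibronectin value lay below every control value, and on the log2 scale the gap between the groups was larger than the distance between replicates. The mean log2 signal was 7.89 ± 0.32 on uncoated dishes and 7.01 ± 0.13 on fibronectin (SD, n = 2 each), 1.84-fold lower on fibronectin. The log2 difference was -0.88 (SE 0.41), with a 95% interval from -1.84 to 0.08. It did not pass limma's test, with a Benjamini-Hochberg adjusted p = 0.761. Dusp5, an ERK-specific phosphatase, had the largest difference of the tested member probe sets, and it ranged from -1.11 to -0.66 with 1 array left out.

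Dusp1, a phosphatase for ERK, JNK and p38 that is itself an immediate-early gene, gave 364 and 373 on the controls and 286 and 282 on fibronectin in its brighter probe set (1368146_at). These pairs were close within each group and did not overlap. The mean log2 signal was 8.53 ± 0.02 on uncoated dishes and 8.15 ± 0.01 on fibronectin (SD, n = 2 each), a ratio of 1.30 between control and fibronectin. The log2 difference of -0.38 (SE 0.34, with the spread moderated over all probe sets; 95% interval -1.16 to 0.40) had a limma Benjamini-Hochberg adjusted p = 0.807. The separation rested on the normalization, because on the deposited scale fibronectin replicate 1, at 350.1, lay above control replicate 2, at 315.8. There the log2 difference was -0.30. The second Dusp1 probe set (1368147_at) was left out of the test as dim. It read 23.7 and 32.8 on the controls and 45.1 and the floor of 23.4 on fibronectin, so that fibronectin replicates 1 and 2 held its highest and lowest values. On fibronectin replicate 2 its deposited signal was only 2 steps.

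Dusp4, a nuclear phosphatase for ERK and JNK, was dim in its only probe set (1388082_at) and was not tested. It gave 68.6 and 55.5 on the controls and 45.3 and the floor of 23.4 on fibronectin. Both fibronectin values were below both controls, but the deposited signal on fibronectin replicate 2 was 4 steps, so the size of the gap is not measured. Taken with the floor, the log2 difference was -0.92, or -0.42 without fibronectin replicate 2 and -1.41 without fibronectin replicate 1.

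**Figure D2:**
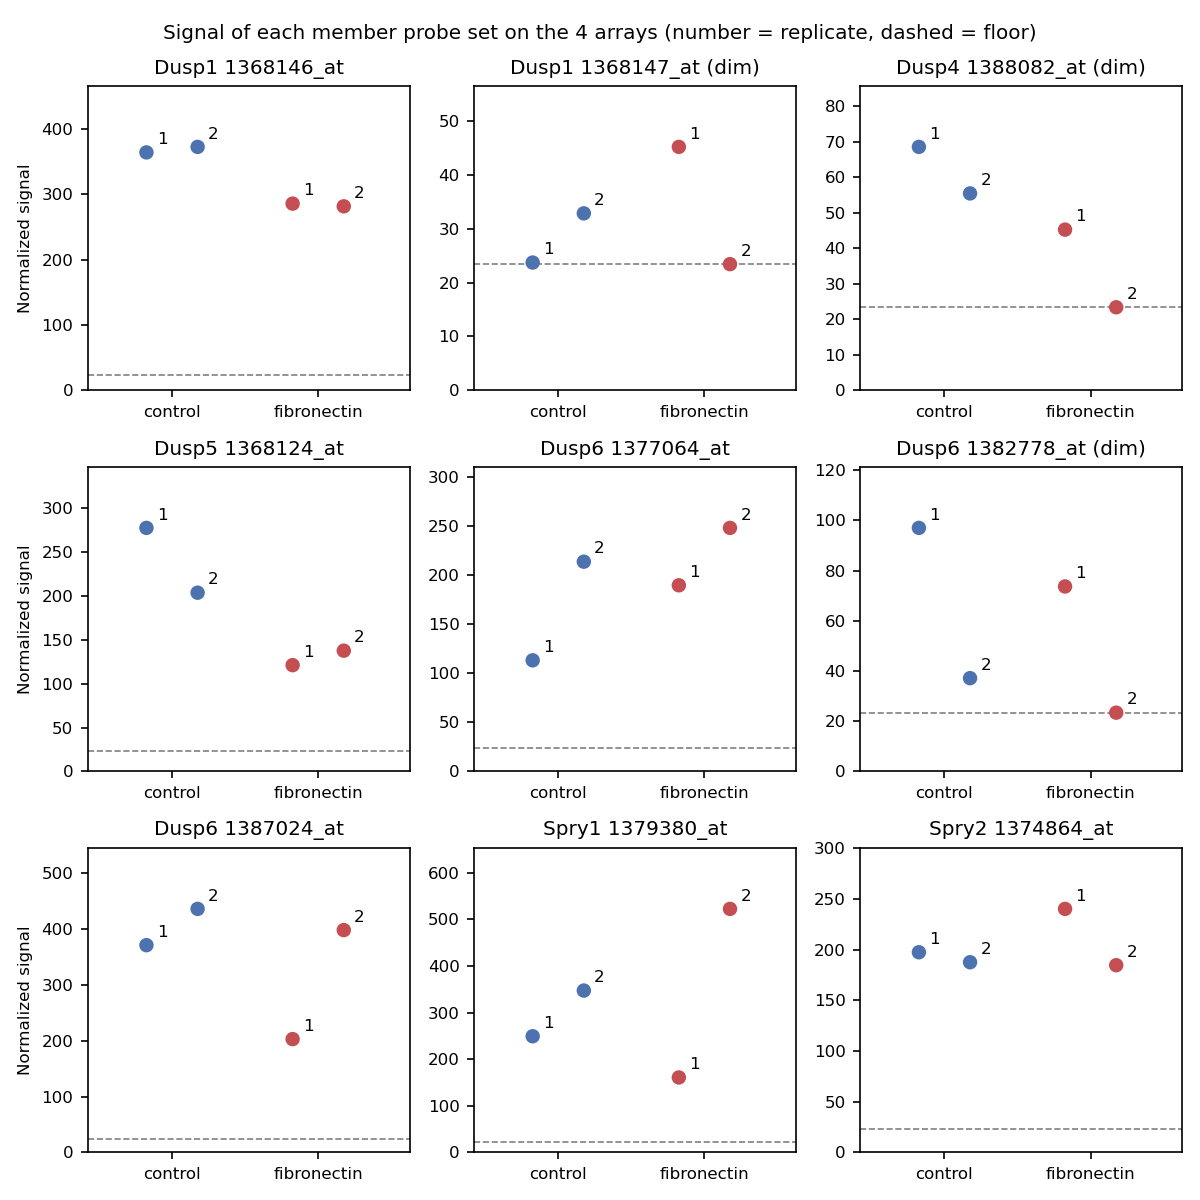
Quantile-normalized signal (linear axis, from 0) of the 9 member probe sets on the 4 arrays; numbers are replicates, dashed lines the floor of 23.4, and "dim" marks probe sets left out of the test. For Dusp1 1368146_at, Dusp4 and Dusp5 both fibronectin values lie below both controls, while the Dusp6 and Spry panels overlap.

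The 3 probe sets of Dusp6, the cytoplasmic ERK phosphatase, did not share one direction. The brightest (1387024_at) gave 372 and 437 on the controls and 203 and 399 on fibronectin. Fibronectin replicate 1 was low and fibronectin replicate 2 lay among the controls. Its log2 difference was -0.50 (SE 0.42; 95% interval -1.47 to 0.47), with limma's Benjamini-Hochberg adjusted p = 0.797. The difference was -0.02 without fibronectin replicate 1 and -1.01 without fibronectin replicate 2.

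A second Dusp6 probe set (1377064_at) read 113 and 214 on the controls and 190 and 248 on fibronectin. Control replicate 1 was the low array here, and the other three values lay within the range of 190 to 248. The log2 difference was 0.48 (SE 0.46; 95% interval -0.60 to 1.56), with limma's Benjamini-Hochberg adjusted p = 0.819. Without control replicate 1 it was 0.02, and without control replicate 2 it was 0.95. The third Dusp6 probe set (1382778_at), left out as dim, read 97.0 and 37.2 on the controls and 73.7 and the floor of 23.4 on fibronectin. The replicates differed by 1.38 between controls on the log2 scale, more than the -0.53 between groups. On the deposited scale the brightest probe set was lower and the second higher on fibronectin without overlap, at -0.47 and 0.51. Where in the transcript each probe set lies was not analysed here.

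The Sprouty genes showed no shift between dishes larger than the spread of their arrays. Spry1 (1379380_at) gave 249 and 347 on the controls and 161 and 523 on fibronectin. The lowest and the highest value both came from fibronectin dishes, and the controls fell between them. Its mean log2 signals were 8.20 ± 0.34 and 8.18 ± 1.20 (SD, n = 2 each), a difference of -0.02 (SE 0.57; 95% interval -1.33 to 1.29) with limma's Benjamini-Hochberg adjusted p = 0.994. It ran from -0.90 without fibronectin replicate 2 to 0.80 without fibronectin replicate 1, so these arrays do not set a direction for Spry1.

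Spry2 (1374864_at) was the steadier adaptor, at 197 and 187 on the controls and 240 and 185 on fibronectin. Fibronectin replicate 1 was above both controls and fibronectin replicate 2 slightly below them. The log2 difference was 0.13 (SE 0.39; 95% interval -0.78 to 1.04), with limma's Benjamini-Hochberg adjusted p = 0.947. That interval leaves room for a change in either direction, so the data do not show that Spry2 was equal on the 2 surfaces.

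**Figure D3:**
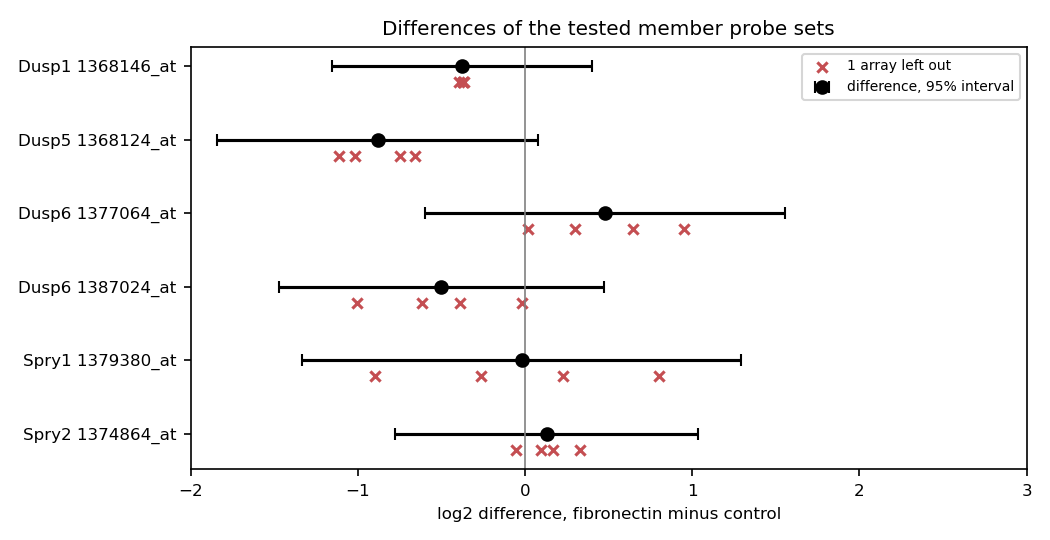
Log2 difference (fibronectin minus control) of the 6 tested member probe sets, points with 95% intervals from limma, and crosses for the difference with each array left out in turn. Every interval spans 0; the crosses stay on one side of 0 for Dusp1, Dusp5 and both Dusp6 probe sets and on both sides for Spry1 and Spry2.

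Over the 6 tested member probe sets 0 passed limma's Benjamini-Hochberg threshold of 0.05, and the same was true of 0 of 9520 probe sets in all (0.0%). At an unadjusted p under 0.05 limma gave 0 member probe sets and 619 in all (6.5%). Counting each gene once by its brightest tested probe set, 2 of 5 member genes, Dusp1 and Dusp5, were lower on fibronectin without overlap, where 17.3% of 7102 genes were. None of the 5 was higher without overlap, where 20.5% of all genes were. With 5 genes, the count of 2 was not tested against that background. The median log2 difference was -0.38 over the 5 genes and 0.02 over all genes. The members' median was -0.06 without fibronectin replicate 1 and -0.90 without fibronectin replicate 2, so its size rested on single arrays. On the deposited scale the genes lower without overlap were Dusp5 and Dusp6, and the background there was 10.5% lower and 22.0% higher. An exact permutation test of 2 arrays against 2 cannot give a two-sided p below 0.333. In a culture with several cell types, fewer cells of a type and less RNA per cell cannot be told apart. Fibroblast marker sums and the 3' to 5' ratios of Gapdh and beta-actin differed with the coating as given above, while the hexokinase ratios overlapped. The part of these sums and ratios in the lower Dusp1, Dusp4 and Dusp5 signals was not tested.

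Other phosphatases of the family had differences in both directions. Of 5 tested genes among 9 on the array, 3 had higher and 2 lower mean signals. Without overlap was 1 in each direction, where 20.5% of all genes were higher and 17.3% lower. The median log2 difference was 0.18, or -0.28 without control replicate 2. Dusp3, a small phosphatase also named VHR that acts on ERK and JNK, was the brightest of them and had the highest difference. It read 403 and 418 on the controls and 579 and 583 on fibronectin. Both pairs were tight and apart, with a log2 difference of 0.50 (SE 0.31; limma's Benjamini-Hochberg adjusted p = 0.772), while its dimmer probe set gave 0.23 with overlap. Dusp11, an RNA phosphatase, had the lowest difference, -0.74 (SE 1.01), from 127 and 165 to 287 and 26.2. Its fibronectin arrays lay on either side of the controls, and the 26.2 of fibronectin replicate 2 was near the floor of 23.4. It differed by -2.42 without fibronectin replicate 1 and by 1.02 without fibronectin replicate 2.

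Other brakes on Ras and ERK were measured for 17 tested genes of 23 on the array. The mean was higher for 6 and lower for 11, and the median log2 difference was -0.24. Without overlap were 2 and 4 of them (20.5% and 17.3% of all genes). Pebp1, the Raf kinase inhibitor protein and the brightest of the list, differed by 0.10 (SE 0.27), from 2311 and 2551 to 2297 and 2952. Pea15, which holds ERK in the cytoplasm, had the highest difference, 1.07 (SE 0.65), from 108 and 354 to 257 and 656. Its replicates lay far apart in both groups, and the groups overlapped. Its difference was 0.21 without control replicate 1, 0.41 without fibronectin replicate 2, 1.94 without control replicate 2 and 1.69 without fibronectin replicate 1. A dimmer Pea15 probe set, also tested, differed by 0.50 (SE 0.61) with overlap. Spred3, a Sprouty-related adaptor, had the lowest, -1.14 (SE 0.84). That value came from fibronectin replicate 2, which was at the floor while the other three arrays read 107 to 117, and without it the difference was -0.02.

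The cascade that these proteins restrain also had 0 genes past the threshold with all arrays, where 0 of 9520 probe sets passed in all. Of 15 tested Ras to ERK genes 5 had higher and 10 lower means, with a median of -0.26. Without overlap were 2 and 5 of them (20.5% and 17.3% of all genes). Map2k2, which encodes MEK2, had the highest difference at 0.55 (SE 0.35), from 722 and 1112 to 1066 and 1609, with overlap, and at 0.25 without control replicate 1 or fibronectin replicate 2. Rras, a Ras relative that acts on integrins and the brightest gene of the list, differed by -0.43 (SE 0.34), from 1275 and 1260 to 708 and 1246. Mras, another Ras relative, had the lowest at -1.39 (SE 0.82), from 94.9 and 154 to 91.3 and the floor, and -0.42 without fibronectin replicate 2. In the fit without control replicate 2, its brightest array, Mras was among the probe sets left out as dim. Rras differed by -0.83 without fibronectin replicate 2, and by -0.02 without fibronectin replicate 1.

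In the JNK and p38 branches, which Dusp1 also restrains, 8 of 19 tested genes had higher and 11 lower means, with a median of -0.11. Without overlap were 2 and 6 of them (20.5% and 17.3% of all genes), a count that was not tested. Map3k12, the dual leucine zipper kinase upstream of JNK, had the lowest difference, -1.73 (SE 0.42). It read 512 and 1093 on the controls and 224 and 228 on fibronectin, with limma's Benjamini-Hochberg adjusted p = 0.587. Map2k3, a kinase that activates p38, had the highest at 0.68 (SE 0.35), from 418 and 628 to 696 and 976, or 0.39 without control replicate 1 and 0.44 without fibronectin replicate 2. Map3k20, the stress kinase ZAK and the brightest of the list, differed by 0.15 (SE 0.40) with overlap, from 798 and 520 to 959 and 530.

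Immediate-early genes and other products of ERK signalling, the class to which Dusp1 and Dusp5 belong, had differences in both directions. Of 22 tested genes 10 had higher and 12 lower means, with a median of -0.06. Without overlap were 4 and 7 of them (20.5% and 17.3% of all genes), a count that was not tested. Ccn1, a matricellular protein, had the highest difference at 1.29 (SE 0.67), from 139 and 39.4 to 204 and 161. It was 0.38 without control replicate 2 and 2.24 without control replicate 1. Ccn2, its relative and the brightest gene of the list, differed by 0.99 (SE 0.34), from 2026 and 3705 to 6232 and 4747, with limma's Benjamini-Hochberg adjusted p = 0.719. Without control replicate 1 its difference was 0.59. Zfp36, which encodes the mRNA-destabilizing protein tristetraprolin, had the lowest, -1.67 (SE 0.42), from 422 and 384 to 168 and 95.04. In limma the Benjamini-Hochberg adjusted p of Zfp36 was 0.587 with all arrays. Its difference was -1.99 without fibronectin replicate 1 and -1.29 without fibronectin replicate 2.

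Receptor tyrosine kinases and their ligands, which act upstream of the Sprouty proteins, had 14 tested genes of 33 on the array. The mean was higher for 6 and lower for 8, and the median was -0.20. Without overlap were 1 and 5 of them (20.5% and 17.3% of all genes). Pdgfra, the alpha receptor for platelet-derived growth factor and a fibroblast marker, had the lowest difference at -0.83 (SE 0.40), from 382 and 504 to 190 and 321. It was -0.43 without fibronectin replicate 1 and -1.24 without fibronectin replicate 2. Fgfr2 had the highest, 0.57 (SE 0.40), from 156 and 130 to 203 and 221, and 0.18 in its other tested probe set. Fgfr1, the brightest and the main fibroblast growth factor receptor of heart muscle cells, had a difference of 0.12 (SE 0.41), and its dimmer tested probe set -1.84 (SE 0.91), both with overlap. Across the 6 lists 0 genes passed limma's Benjamini-Hochberg threshold with all arrays. In the same fit 8 list entries had an unadjusted limma p under 0.05, as had 405 of all 7102 genes.

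**Figure D4:**
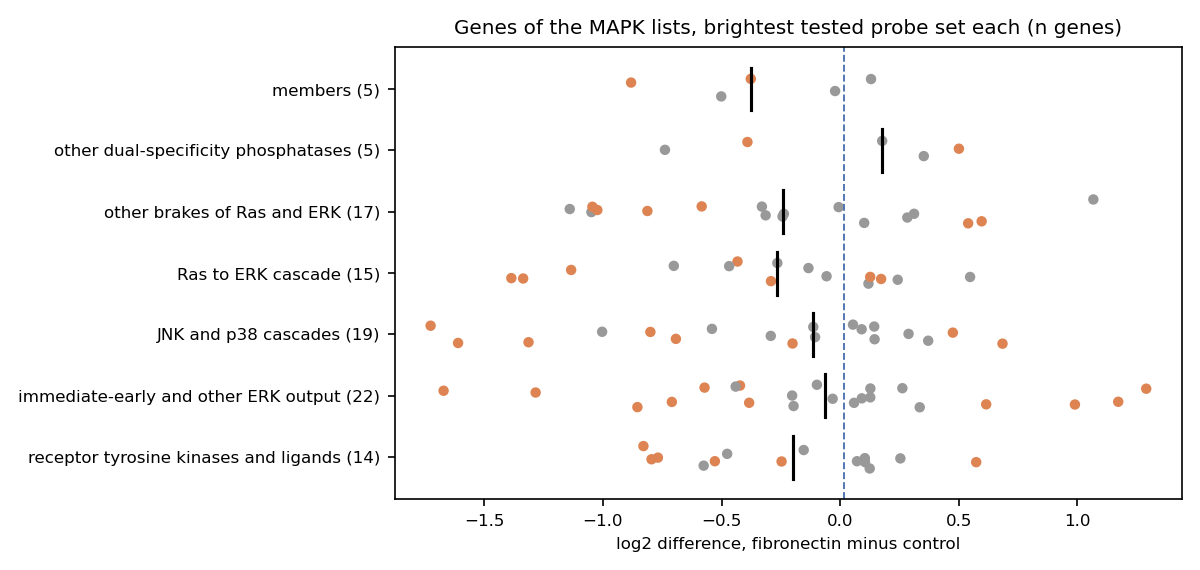
Log2 difference (fibronectin minus control) of each tested gene in the members and 6 fixed MAPK lists; orange points are genes whose groups do not overlap, grey points overlap, black bars are list medians and the dashed line is the median of 7102 genes, 0.02. With all arrays, list medians run from -0.38 for the members (-0.06 without fibronectin replicate 1) to 0.18 for the other phosphatases (-0.28 without control replicate 2), and points spread to both sides of 0 in every list.

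The genes whose 4 values ran most like those of Dusp5 were Clock, Crebl2, Ech1, Srsf5 and Gnas. Likeness was the root-mean-square distance over the 4 arrays between log2 values centred on each gene's mean, and it was 0.042 for Clock and 0.059 for Gnas. Their log2 differences ran from -0.94 to -0.79, next to -0.88 for Dusp5, a nearness that follows from choosing them on these same values. Over 4 arrays this is a description only.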

How the data were processed

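Gene expression was measured on 4 Affymetrix rat arrays. The authors' deposited table held 1 linear intensity per probe set and array; its making from the scans is described in no label or header used here. Quantile normalization of 15866 probe sets (9 Affymetrix control probe sets left out of 15875) was followed by a floor of 23.4, the 20th percentile, and log2. The dimmest 40% by mean log2 signal were left out and 9520 tested with lmFit and eBayes (intensity trend) in limma 3.58.1, R 4.3.3, two-sided, with Benjamini-Hochberg adjustment over all of them and a threshold of 0.05. The method was tested on simulated data. Names came from the platform annotation, where 12783 probe sets had 1 symbol, 312 several and 2771 none. Precision is limited by 2 arrays per group. Figures used matplotlib 3.10.9.

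The members and lists were chosen with earlier results of these data known. All member probe sets are named. From each list the highest, the lowest and the brightest tested gene are named, each by its brightest tested probe set. Dim probe sets were described without a test. Alternatives were other normalizations, filters, an offset, no trend, the replicate number as a block, and each array left out. Array r values and marker sums used the normalized signals, and 3' to 5' ratios the deposited ones.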

Additional observations from a re-analysis of the deposited data

How the results depend on the processing

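No member probe set passed limma's threshold under any of the 11 alternatives, the lowest Benjamini-Hochberg adjusted p being 0.258, for Spry1 without fibronectin replicate 1. Dusp1 1368146_at, Dusp5 and both tested Dusp6 probe sets kept their direction in all 11. Over all probe sets, leaving out 1 array gave 0 to 429 past the threshold (12 without control replicate 1, 429 without fibronectin replicate 1, 12 without fibronectin replicate 2). Such a fit takes the spread of the group left with 1 array from the group that has 2. With the replicate block 234 of all 9520 tested probe sets passed. The arrays share only a number, and deviations of same-numbered arrays correlated at 0.271. The block brought 5 list genes past the threshold, Ccn2, Map3k12, Zfp36, Rap1a and Map3k1 (adjusted p = 0.0184, 0.00175, 0.0134, 0.00402 and 0.0348), but no member. Rap1a, Map3k1 and Sos1 are named because of such alternative fits, after their values were seen. List genes also passed without fibronectin replicate 1, the fit in which the most probe sets passed in all. In the remaining alternatives no list gene passed. Neither set of list calls was tested against the calls over all probe sets. With 1 array left out, differences whose sign turned ran from -0.25 to 0.63 for the dim Dusp1 probe set, from -1.35 to 0.26 for the dim Dusp6 probe set, from -0.90 to 0.80 for Spry1 and from -0.057 to 0.33 for Spry2. In the same fits they ran from -2.42 to 1.02 for Dusp11, -0.22 to 0.46 for Egr1, -0.34 to 0.58 for Fgfr1, -0.28 to 0.57 for Map3k20, -1.76 to 0.45 for Sos1 and -0.072 to 0.28 for Pebp1. List medians ran from -0.90 to -0.06 for the members, from -0.28 to 0.42 for the other phosphatases and from -0.29 to 0.037 for the Ras to ERK cascade. Other settings turned the dim Dusp1 probe set to -0.0030 (median shift) and -0.14 (offset), Spry1 to 0.011 (offset), and the immediate-early median to 0.059 (deposited scale), 0.012 (median shift) and 0.013 (stricter filter). The causes were not tested, beyond the smaller number of arrays or genes in each fit. Averaging every probe set of a gene, dim ones included, 3 of 6 member genes, Dusp4, Dusp5 and Dusp6, were lower without overlap, against 16.2% of 10411 genes averaged that way. The overlap counts on other scales were added after seeing the data. Dim signals, above all on fibronectin replicate 2, limit what Dusp4 can show.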

Other observations

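Some other immediate-early genes, picked after their values were seen, stood beside the nuclear phosphatases. Nr4a1, an orphan nuclear receptor, read 146 and 130 on the controls and 73.5 and 43.6 on fibronectin, a log2 difference of -1.28 (SE 0.59). The Nr4a1 difference ran from -1.60 to -0.94 with 1 array left out and was -0.81 with the offset. Under the stricter filter its probe set dropped out of the test. Ier3, a stress-responsive early gene, read 441 and 741 and then 238 and 419, a difference of -0.85 (SE 0.42), or -0.44 without fibronectin replicate 1 and -0.49 without control replicate 2. Fos ran the other way in its tested probe set, from 47.1 and 44.8 to 122 and 88.1, a difference of 1.17 (SE 0.67). That probe set was near the dim limit. It dropped out of the test when either fibronectin array was left out and under the stricter filter. Egr1 overlapped, at 323 and 493 on the controls and 344 and 552 on fibronectin, a difference of 0.13 (SE 0.39). Benjamini-Hochberg adjusted p from limma lay between 0.761 and 0.949 for these 4 genes.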
